A study of Mus musculus with 4 samples.

Results

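The regions described here are the intergenic peaks of RIF1 occupancy that lay far from the 5′ end of any protein-coding gene in activated mouse B cells. Distance to the 3′ end of a gene was not limited. They were taken from the list of 16043 peaks under 50 kb in width. A peak on the autosomes was included if it overlapped no gene body and no window of 1 kb on each side of a transcript 5′ end (TSS, all annotated gene types), and if its midpoint lay more than 50 kb from the nearest TSS of a protein-coding gene. Of 15635 autosomal peaks, 1614 met this rule, which was 10.3% (95% Wilson interval 9.86 to 10.8%) of the autosomal peaks and 36.0% of the 4489 intergenic ones. They covered 2.37 Mb in all. The rule used position alone and no measured height.

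RIF1 was profiled by chromatin immunoprecipitation and sequencing with an anti-HA antibody in primary B cells from mouse spleen. The 2 Rif1FH samples came from Rif1FH/FH mice, in which endogenous RIF1 carries Flag and HA tags, and the 2 Rif1WT samples came from untagged C57BL/6 (Rif1WT/WT) mice as negative controls. All B cells were isolated with anti-CD43 beads, grown with 5 µg/ml LPS and 5 ng/ml IL-4 and harvested 72 h after activation. The list holds a chromosome, a start and an end for each peak kept from both Rif1FH replicates, so that no height, no value per replicate and no value in the Rif1WT control could be compared, and the depth behind a peak is unknown. The ages of the mice are not given in the sources used here.

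RIF1 is a large chromatin protein known for setting the timing of DNA replication and for steering the repair of DNA breaks towards end joining, which B cells need for class switch recombination. Sequence far from genes holds a mixture of distal enhancers, insulator sites bound by CTCF, promoters of noncoding RNAs and long stretches of repeats. In B cells, distal enhancers are commonly bound by PU.1, E2A, EBF, RUNX and IRF factors, and stimulation through Toll-like receptors adds NF-kappaB and AP-1.

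The sequences below show what the centres of such peaks looked like. Each is the central 300 bp, mm9 build, plus strand, and is named by the nearest coding gene. Capitals mark matches to 14 motifs, which are spelled out with their shares below. The first is the widest peak, nearest to Creb5, whose centre held none of the 14 motifs. The second is the peak farthest from any coding TSS, nearest to Cntnap5b on chromosome 1. It held an IRF match. The Mef2a and Mef2c peaks belonged to the 2 longest runs of neighbouring peaks, and were the members of those runs with most kinds of motif. The remaining 2 peaks held 5 kinds each, and no printed peak held more.
Creb5 peak, chr6:53402140-53402439: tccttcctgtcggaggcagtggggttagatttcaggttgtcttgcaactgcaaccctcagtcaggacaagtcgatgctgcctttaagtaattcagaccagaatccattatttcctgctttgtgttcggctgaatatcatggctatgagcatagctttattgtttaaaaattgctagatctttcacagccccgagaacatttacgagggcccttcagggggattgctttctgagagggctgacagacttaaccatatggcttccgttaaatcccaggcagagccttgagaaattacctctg
Cntnap5b peak, chr1:103798799-103799098: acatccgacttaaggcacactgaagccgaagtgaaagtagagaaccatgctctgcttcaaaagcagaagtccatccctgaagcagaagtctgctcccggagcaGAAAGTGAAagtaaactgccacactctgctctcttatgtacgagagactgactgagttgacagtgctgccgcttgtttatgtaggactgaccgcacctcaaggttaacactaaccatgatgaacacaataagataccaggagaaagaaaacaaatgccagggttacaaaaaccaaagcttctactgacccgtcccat
Mef2a peak, chr7:74606809-74607108: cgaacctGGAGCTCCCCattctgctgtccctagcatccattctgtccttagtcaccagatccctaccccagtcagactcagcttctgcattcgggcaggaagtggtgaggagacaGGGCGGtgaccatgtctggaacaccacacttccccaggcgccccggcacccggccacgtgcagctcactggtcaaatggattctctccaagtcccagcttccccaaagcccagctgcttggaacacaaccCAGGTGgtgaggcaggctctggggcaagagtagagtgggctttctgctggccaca
Mef2c peak, chr13:83195397-83195696: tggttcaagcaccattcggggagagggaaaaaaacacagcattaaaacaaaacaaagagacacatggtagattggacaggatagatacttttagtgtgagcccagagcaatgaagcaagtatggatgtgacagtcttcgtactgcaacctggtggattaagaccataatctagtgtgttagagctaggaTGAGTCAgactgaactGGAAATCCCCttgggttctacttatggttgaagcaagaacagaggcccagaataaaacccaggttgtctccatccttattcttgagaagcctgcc
Vwa3b peak, chr1:37138862-37139161: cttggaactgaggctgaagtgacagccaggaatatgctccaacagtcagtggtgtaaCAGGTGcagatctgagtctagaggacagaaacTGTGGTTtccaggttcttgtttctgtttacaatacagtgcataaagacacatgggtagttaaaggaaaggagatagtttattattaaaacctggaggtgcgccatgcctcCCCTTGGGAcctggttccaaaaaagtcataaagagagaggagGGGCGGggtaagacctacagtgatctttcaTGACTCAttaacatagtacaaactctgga
Nhlrc3 peak, chr3:53079934-53080233: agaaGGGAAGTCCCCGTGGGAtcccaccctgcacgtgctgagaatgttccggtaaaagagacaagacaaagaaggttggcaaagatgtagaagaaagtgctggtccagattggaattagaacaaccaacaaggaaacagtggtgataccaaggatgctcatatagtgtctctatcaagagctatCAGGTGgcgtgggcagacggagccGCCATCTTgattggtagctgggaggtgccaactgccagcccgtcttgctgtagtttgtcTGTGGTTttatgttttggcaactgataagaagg

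The Mef2c sequence carried an AP-1 match (TGAGTCA) a few bases from a kappaB match. In the Nhlrc3 sequence, the kappaB and EBF matches overlapped, and a YY1 and a RUNX match stood apart from them.

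Distal peaks were sparse. In intergenic sequence beyond 50 kb from a coding TSS, RIF1 peaks numbered 1.92 per Mb over 839.9 Mb of sequence that could hold them, against 6.98 per Mb over 411.6 Mb of intergenic sequence within 50 kb. Over the 19 autosomes the mean was 2.04 ± 0.728 per Mb (SD, n = 19 autosomes) for distal and 7.15 ± 1.42 per Mb for near intergenic sequence. The density was lower in distal sequence on 19 of 19 autosomes (adjusted p = 1.02e-05, exact two-sided Wilcoxon signed-rank test over autosomes), with a typical difference of -5.01 per Mb (95% interval -5.74 to -4.43). These p-values measure how alike chromosomes are and not the spread between mice. Reads were aligned only where they had a unique match, and the share of repeated sequence in either class was not tested.

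The density was similar in the bins within 50 kb and was lower in each bin beyond. It was 6.68, 7.43, 7.61 and 6.58 peaks per Mb at 0 to 5, 5 to 10, 10 to 20 and 20 to 50 kb. It was 4.55 per Mb at 50 to 100 kb, 2.65 at 100 to 200 kb and 0.902 at 200 to 500 kb. At 500 to 1000 kb, 48 peaks gave 0.335 per Mb, and beyond 1000 kb 19 peaks gave 0.321 per Mb. Accordingly, most distal peaks were not extremely remote, with a median distance of 101.9 kb (quartiles 69.0 and 170.1 kb). The 3 peaks just inside the limit lay 50020, 50038 and 50051 bp from Atp12a, Tmem26 and Dhx15, and the 3 intergenic peaks just outside it lay 49985, 49955 and 49937 bp from Larp1, Slc38a11 and Gm9805.

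**Figure D1:**
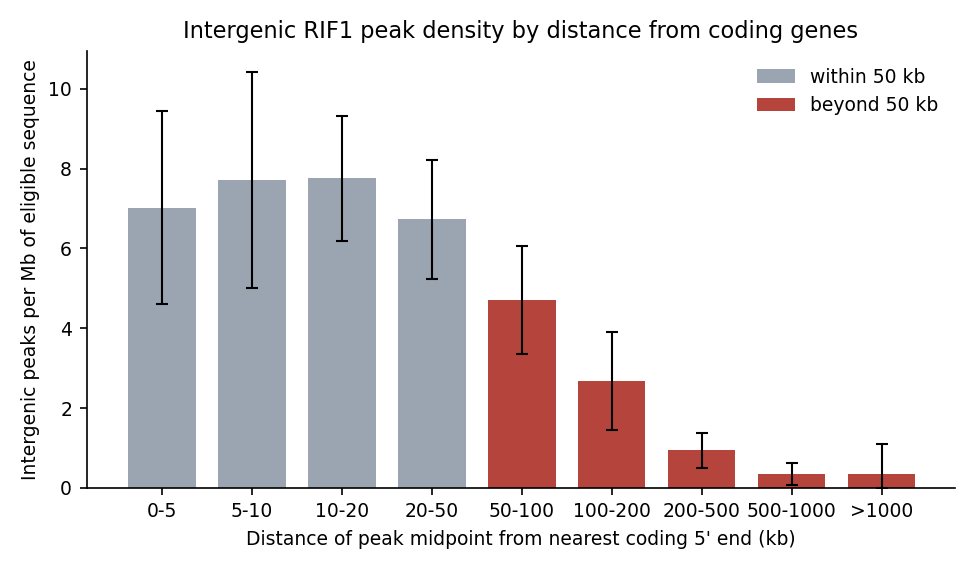
Intergenic RIF1 peaks per Mb of eligible sequence (y axis) by distance of the peak midpoint from the nearest coding 5′ end (x axis, kb). Bars are means over the autosomes and error bars SDs, cut at 0. The mean is 7.02 per Mb at 0 to 5 kb and 4.71 per Mb at 50 to 100 kb, and falls to 0.346 per Mb beyond 1000 kb.

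All autosomes held distal peaks, from 39 on chromosome 11 to 136 on chromosome 12. Relative to the sequence that could hold them, chromosome 19 was densest with 4.39 per Mb, and chromosomes 3 and 11 were lowest with 1.31 and 1.32 per Mb. Chromosome 11 had at the same time the highest near intergenic density, 10.0 per Mb, so that distal peaks made up 3.71% of its peaks. On chromosome 12 they made up 17.4%.

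Some long stretches without any coding gene held RIF1 peaks. Distal peaks were found in 22 of 61 coding-gene-free stretches over 2 Mb long (36.1%) and in 60 of 181 stretches of 1 to 2 Mb (33.1%), compared with 484 of 2009 stretches of 0.1 to 0.5 Mb (24.1%). No peak of any kind was listed in 30 of the 61, 92 of the 181 and 1059 of the 2009. Per Mb, however, the long stretches held fewer, 0.370 over 2 Mb against 2.28 at 0.1 to 0.5 Mb. The stretch with most distal peaks, 16 in 0.719 Mb, lay on chromosome 12 between Trib2, a pseudokinase gene, and Lpin1, a phosphatidate phosphatase gene. The Zeb2 to Acvr2a interval on chromosome 2 spanned 3.70 Mb and held 12.

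The 3 farthest peaks were isolated. The farthest was chr1:103797640-103800257, 2618 bp wide and 2129.6 kb from Cntnap5b, a contactin-associated cell adhesion gene. Next was a 454 bp peak on chromosome 14, 1494.7 kb from the protocadherin gene Pcdh9, and then a 484 bp peak on chromosome 1, 1407.7 kb from the cadherin gene Cdh20. The nearest other peak was 1456.9, 1498.0 and 1456.9 kb away from these 3. The next pair, 1278.3 and 1256.2 kb upstream of Zeb2, had another peak 20.6 and 0.461 kb away. Of the 19 peaks beyond 1000 kb, 47.4% had another peak within 10 kb. In all, 13 distal peaks had no other peak within 1 Mb and 259 (16.0%) had none within 100 kb.

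Distal peaks were not shown to differ in width from near intergenic peaks or from gene body peaks at a like distance. The median of all peaks under 50 kb was higher, 1365 bp, and 659 of the 1614 distal peaks reached it, a difference that was not tested. Their median width was 1214 bp (quartiles 832.3 and 1815.5 bp) and that of near intergenic peaks 1207 bp, and the difference over autosomes was not past the threshold (adjusted p = 0.945, exact signed-rank test, 95% interval of the difference -71.0 to 78.0 bp). Peaks inside gene bodies but more than 50 kb from a coding TSS were 1152 bp wide (n = 684), and this difference was not past the threshold either (adjusted p = 0.403, exact signed-rank test, interval -55.5 to 144.8 bp). Within the distal class, the median width was 1257.5 bp at 50 to 100 kb and 899 bp beyond 1000 kb, where there were 19 peaks.

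A tail of 39 distal peaks (2.42%) was at least 4 kb wide. The widest, 9089 bp at chr6:53397746-53406834, lay 121.1 kb upstream of Creb5, which encodes a CREB family transcription factor and had no peak at its own TSS. The next 4 lay upstream of Glrp1 (7915 bp), Fam48a (7893 bp), Sesn3 (7259 bp) and Klf7 (6789 bp), and each of those genes had a TSS peak. Sesn3 encodes a stress-induced sestrin and Klf7 a Krüppel-like transcription factor.

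Distal peaks were richer in G and C than peak-free distal sequence as a whole, and poorer than near intergenic peaks. The central 300 bp had a median GC content of 47.0%, and the 2786642 peak-free tiles of 300 bp that met the same rule had 39.3%. The tiles were not limited to sequence with a unique match, where alone peaks could be listed. The peaks were higher on 19 of 19 autosomes (adjusted p = 1.02e-05, exact signed-rank test, interval of the difference 6.83 to 8.0 percentage points). Over the whole interval, distal peaks had a median GC of 46.2% and near intergenic peaks 47.5%, lower in distal peaks on 17 of 19 autosomes (adjusted p = 8.54e-05, exact signed-rank test, interval -1.68 to -0.819). Distal gene body peaks had 46.8%, and intergenic distal peaks were lower on 14 of 19 autosomes (adjusted p = 0.00711, exact signed-rank test). That last call was lost among peaks at or above the median width (45.9 against 46.9%, adjusted p = 0.193, exact signed-rank test).

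The GC content of both peaks and peak-free tiles was lower far from coding TSS. At 50 to 100 kb the central windows had a median of 47.3% and the tiles 41.7%, at 200 to 500 kb 46.0 and 39.0%, and beyond 1000 kb 42.3 and 36.7%. CpG-rich peaks were uncommon. Only 37 distal peaks (2.29%, interval 1.67 to 3.14%) had a GC content of 50% or more together with a CpG ratio (observed over expected) of 0.6 or more, compared with 122 of 2875 near intergenic peaks (4.24%, interval 3.57 to 5.04%), a difference that was not tested over autosomes. The median CpG ratio was 0.238 in distal and 0.245 in near intergenic peaks.

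Matches to transcription factor motifs were counted on both strands in the central 300 bp of each peak and in all peak-free tiles. The motifs were AP-1 (TGANTCA), PU.1 (GAGGAAGT), ETS (CCGGAAG), RUNX (TGTGGTT), the E2A E-box (CAGGTG), the octamer (ATGCAAAT), IRF (GAAANNGAA), EBF (CCCNNGGGA), the GC box (GGGCGG), CRE (TGACGTCA) and YY1 (AAGATGGC), the kappaB and CTCF consensus, and the G-quadruplex (4 runs of at least 3 G with loops of 1 to 7 bases). Matches of different motifs can share bases, such as the GC box and the G-quadruplex. A match describes the letters and not a bound factor.

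Matches to most of the motifs were more common in distal peaks than in peak-free distal sequence. As the tiles were not limited to sequence with a unique match, the part of repeated sequence in these differences was not tested. Of 14 motifs, 10 were higher and 1 was lower (adjusted p under 0.05, exact signed-rank test over 19 autosomes, adjusted over the 14). AP-1 was found in 229 of 1614 peaks (14.2%, interval 12.6 to 16.0%) against 9.01% of tiles, higher on 16 of 19 autosomes. PU.1 was found in 84 (5.20%) against 1.74% and EBF in 73 (4.52%) against 2.14%. The E2A E-box, the commonest, stood at 22.8% against 14.8%, RUNX at 9.42% against 6.47%, and kappaB at 7.56% against 3.12%. The GC box was higher on all 19 autosomes, at 8.24% against 1.62%. ETS stood at 3.35% against 0.582%. Among the 659 distal peaks at or above the median width, 4 motifs were still higher, PU.1, ETS, kappaB and the GC box, and AP-1, RUNX, the E2A E-box and EBF were not past the threshold.

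IRF (14.1 against 12.9%), the octamer (2.66 against 3.20%) and CRE (0.372 against 0.123%) were not past the threshold. CRE matches lay in only 6 peaks, so that most of the 19 autosomes held none. CRE was higher in peaks when central windows of 900 bp were used (1.12 against 0.375%, adjusted p = 0.00236, exact signed-rank test). YY1 was lower in peaks, 1.80 against 2.94%, a call that like that of RUNX was lost with a limit of 100 kb. CTCF matches were rare, in 24 peaks (1.49%, interval 1.0 to 2.2%) against 0.0728% of tiles. The CTCF share was higher on 11 of 19 autosomes (adjusted p = 0.0224, exact signed-rank test). The call was lost within a narrower range of GC content (1.68 against 0.112%). It was also lost at the 100 kb limit (1.09 against 0.06%) and among wider peaks (0.759 against 0.0728%). An autosome without a match counts as lower, and only 14 peaks held a match in that GC range. With so few, the test cannot say whether the CTCF difference depends on GC content, distance or width. Of all distal peaks, 532 (33.0%) held none of the 14 motifs, as did 51.9% of tiles, and 23 held 4 or more kinds.

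Some of these differences changed within a narrower range of GC content. Among the 832 peaks and 727390 tiles with a GC content of 43.0 to 50.7%, the range between the quartiles of the peaks, AP-1 (16.0 against 8.96%), PU.1 (6.73 against 2.3%), ETS, RUNX, the E2A E-box and the GC box were still higher in peaks, and IRF became so (14.5 against 8.95%). EBF (4.33 against 3.51%, adjusted p = 0.332, exact signed-rank test) and kappaB (6.61 against 5.61%, adjusted p = 0.112) were no longer past the threshold. The G-quadruplex was higher in all peaks (6.32 against 4.64%) but lower in this GC range (3.85 against 8.03%). YY1 was still lower in peaks (2.28 against 5.29%). Whether GC content itself or another property of the tiles in this range gave these changes was not tested.

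**Figure D2:**
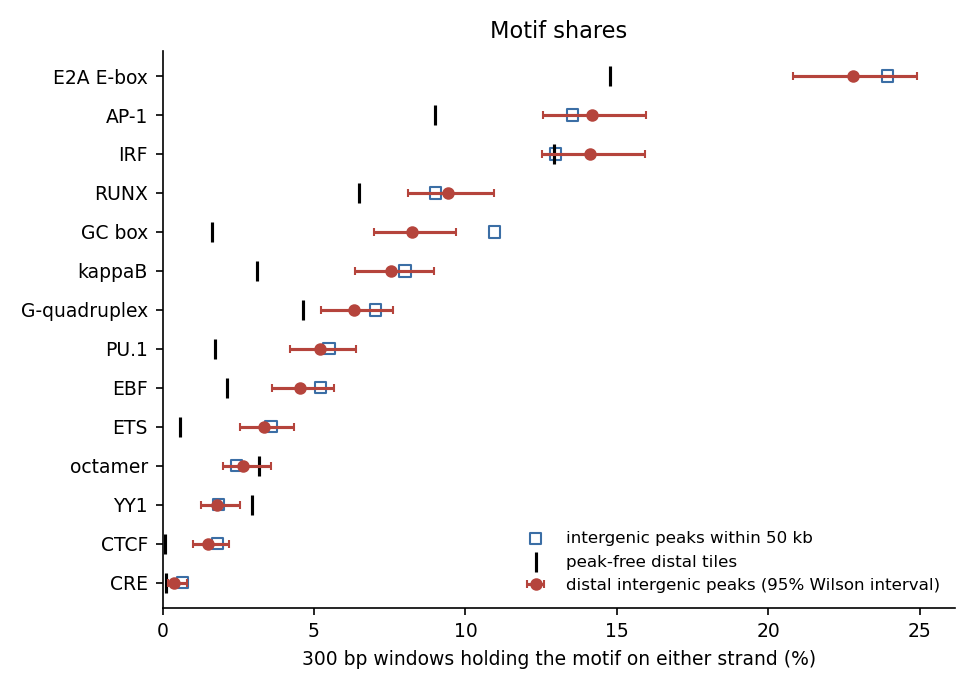
Share of 300 bp windows holding each motif on either strand (x axis, %). Filled points are the 1614 distal intergenic peaks with 95% Wilson intervals, open squares the 2875 intergenic peaks within 50 kb and vertical ticks the peak-free distal tiles. For PU.1, kappaB and the GC box the points lie right of the ticks (5.20 against 1.74%, 7.56 against 3.12% and 8.24 against 1.62%), whereas points and squares lie close together for most motifs.

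Few motif differences were found between distal peaks and near intergenic peaks. Only the GC box was past the threshold, at 8.24% in distal against 11.0% in near intergenic peaks, lower on 14 of 19 autosomes (adjusted p = 0.0283, exact signed-rank test), and this call was lost with a limit of 100 kb, where the shares were 7.85 and 10.5%. Shares for the others were close, such as 14.2 and 13.5% for AP-1, 5.20 and 5.50% for PU.1, and 7.56 and 8.0% for kappaB. The 13 motifs that missed the threshold had adjusted p-values from 0.730 to 0.829, which does not show the shares to be equal. The CTCF share was 1.49 against 1.81%. With distance, PU.1 shares were 5.73% at 50 to 100 kb (45 of 786 peaks), 4.05% at 100 to 200 kb (21 of 519) and 6.61% at 200 to 500 kb (16 of 242), with overlapping 95% intervals.

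The GC content and most of the motifs were concentrated at the peak midpoints, and the flanks 2 to 3 kb away serve as a local comparison. Mean GC content over the central 2 windows of 200 bp was 47.0%, and over the 10 flanking windows it was 43.3%, with single windows between 43.1 and 43.7%, so that the local difference was smaller than that from the peak-free tiles (39.3%). AP-1 was in 8.95% of central and 6.14% of flanking windows, PU.1 in 3.41 and 1.42%, kappaB in 5.20 and 2.82%, the GC box in 5.48 and 2.12%, and CTCF in 0.960 and 0.130%. The octamer (1.89 and 1.51%), the G-quadruplex (4.18 and 3.87%) and YY1 (1.15 and 1.53%) stayed within the range of the single flanking windows. Flanks come from the same peaks and these values carry no test.

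**Figure D3:**
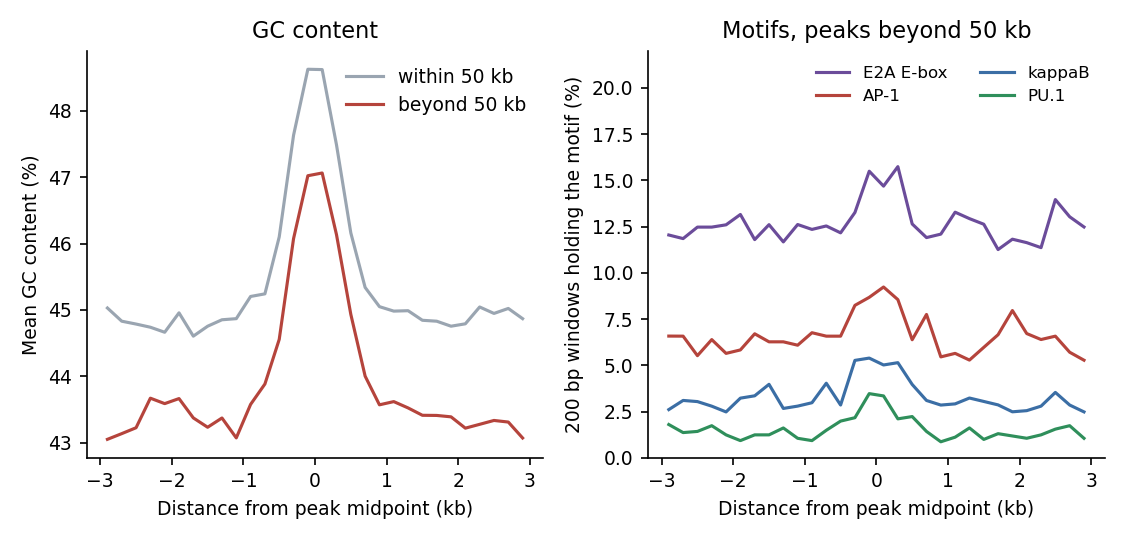
Mean GC content (left, %) and share of 200 bp windows holding 4 motifs (right, %) against distance from the peak midpoint (x axis, kb). Grey is intergenic peaks within 50 kb and red those beyond 50 kb on the left. On the right all lines are distal peaks. GC content of distal peaks rises from about 43.3% in the flanks to 47.0% in the centre, and AP-1 and PU.1 rise from 6.14 and 1.42% to 8.95 and 3.41%.

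Distal peaks had a close neighbour less often than near intergenic peaks as a whole. Another peak lay within 10 kb of 654 distal peaks (40.5%), compared with 54.3% of near intergenic peaks, lower on 18 of 19 autosomes (adjusted p = 1.53e-05, exact signed-rank test, interval -18.4 to -8.80 percentage points). The median gap to the nearest other peak was 18.8 kb for distal and 8.56 kb for near intergenic peaks. This comparison is not independent of the lower density of distal peaks, or of the rule, which keeps them away from coding TSS. By distance, the share with a neighbour was 74.1% at 0 to 5 kb, 72.0% at 5 to 10 kb and 52.4% at 10 to 20 kb. It was alike on both sides of the limit, 42.3% at 20 to 50 kb, 42.7% at 50 to 100 kb and 43.5% at 100 to 200 kb. It was 30.6% at 200 to 500 kb. The nearest other peak was itself a distal peak for 67.1%, a TSS peak for 17.2%, a near intergenic peak for 10.8% and a gene body peak for 4.89%.

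Still, many distal peaks came in runs. When neighbours with midpoints at most 25 kb apart were joined, the 1614 peaks formed 1100 runs, of which 796 were single peaks. A further 304 runs held 2 or more peaks and together 818 of the members, and 24 runs held 5 or more. The largest had 9 peaks of 1213 to 5607 bp over 81.6 kb at chr7:74569025-74650625, nearest to Mef2a, a MADS box transcription factor gene, and Lrrc28. The second had 8 peaks over 55.6 kb at chr13:83159451-83215090, 428.9 to 482.6 kb upstream of Mef2c, with the lincRNA C130071C03Rik as nearest noncoding gene. There were 4 runs of 6. They lay at chr2:178279890-178318355 (38.5 kb, nearest to the cadherin gene Cdh26), at chr5:118808163-118855491 (47.3 kb, nearest to 2410131K14Rik and the Mediator subunit gene Med13l), at chr10:20554473-20604030 (49.6 kb, nearest to Ahi1 and the phosphodiesterase gene Pde7b) and at chr16:49935356-49983403 (48.0 kb, downstream of Cd47, which encodes an integrin-associated membrane protein). The coding genes nearest to these 6 runs had a TSS peak, except Cdh26.

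The coding genes nearest to distal peaks had a listed peak at a TSS more often than those nearest to peak-free distal sequence. For 1029 of 1614 distal peaks (63.8%, interval 61.4 to 66.1%) the nearest coding gene had a peak within 1 kb of a TSS, compared with 40.6% of peak-free distal tiles. The share was higher on 19 of 19 autosomes (adjusted p = 1.02e-05, exact signed-rank test, interval 18.8 to 26.2 percentage points). Near intergenic peaks stood at 62.9%. Over all autosomal coding genes, 34.2% had a TSS peak. Only peaks under 50 kb were counted, and 23.6% of all coding genes overlapped an interval of 50 kb or more, in which narrow peaks are not listed. A gene without a TSS peak is therefore not shown to lack RIF1.

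The difference remained when each gene was counted once, a comparison added after the data were seen. A TSS peak was found at 503 of 855 genes nearest to a distal peak (58.8%) and at 1497 of 3623 genes that were nearest to eligible distal sequence without a peak (41.3%), again higher on 19 of 19 autosomes (adjusted p = 1.02e-05, exact signed-rank test). Among genes outside intervals of 50 kb or more, the shares were 60.7% and 42.5%. Counted by peak, the share was 64.8% against 42.2% of tiles at 50 to 100 kb and 59.9% against 39.9% at 200 to 500 kb. At 500 to 1000 kb, where 48 peaks were left, it was 47.9 against 37.3%.

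**Figure D4:**
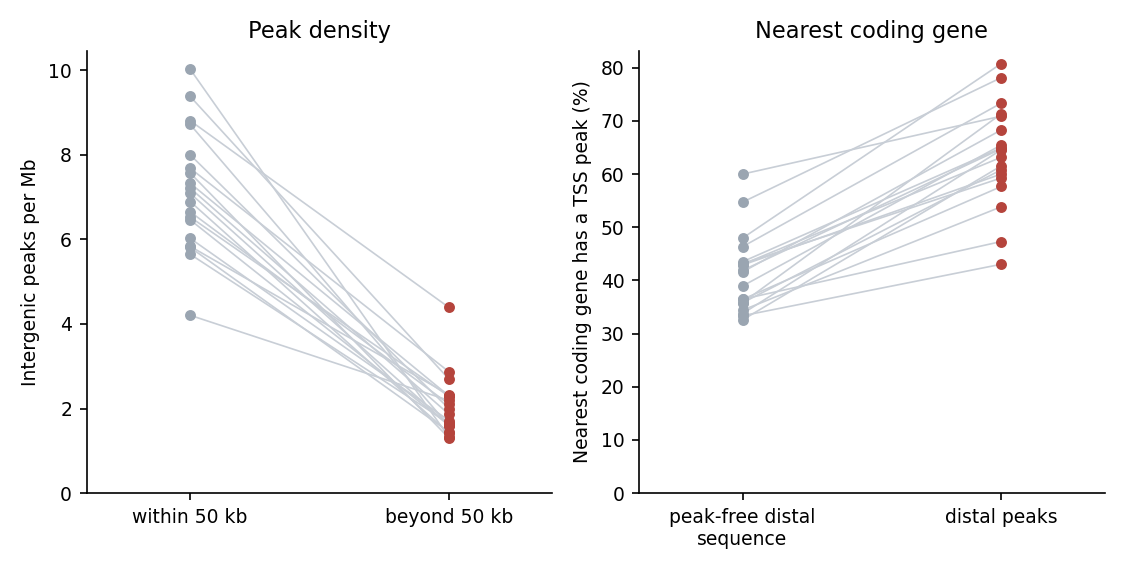
Values of the 19 autosomes, 1 line each. Left, intergenic peaks per Mb (y axis) within and beyond 50 kb of a coding TSS. Right, share (y axis, %) of peak-free distal tiles and of distal peaks whose nearest coding gene has a TSS peak. The left lines all fall, from 4.21 to 10.0 per Mb within 50 kb to 1.31 to 4.39 beyond, and the right lines all rise.

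The 855 genes were 3.99% of autosomal coding genes, and 19.1% of the 4478 genes that were nearest to any eligible distal sequence. For 522 of them there was a single distal peak and for 58 there were 5 or more. Upstream positions made up 56.1% of the peaks. The rule excluded gene bodies, which lie downstream of a TSS, and the upstream share of peak-free distal sequence was not counted. Mef2c, a transcription factor of B cell survival and proliferation, had 13, and no gene had more. They lay 220.9 to 604.1 kb away, 12 of them upstream. Zeb2, a zinc finger transcription factor, had 12, all upstream and up to 1278.3 kb away.

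Tab2, an adaptor of the TAK1 kinase in NF-kappaB signalling, had 11 peaks, all upstream within 228.7 kb, and no TSS peak of its own. Trib2 had 11 and Cdh26 had 10, and Cdh26 also lacked a TSS peak. Jmjd1c, of the JmjC demethylase family, had 10. Lpin1 and Fut8, the core fucosyltransferase, had 9 each, and Klf7, the ubiquitin-conjugating enzyme Ube2e3 and Klf4 had 8 each. They come first by position among 8 genes tied at 8 peaks. Being nearest does not assign a peak to a gene, and long gene-free intervals give a gene more sequence in which to be nearest. Per Mb of peak-free distal sequence nearest to the gene, Tab2 stood at 61.4, and Zeb2 and Jmjd1c at 7.20 and 7.24, against 1.93 over all genes. Among the other genes tied at 8 peaks, 2410131K14Rik stood at 86.3.

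**Figure D5:**
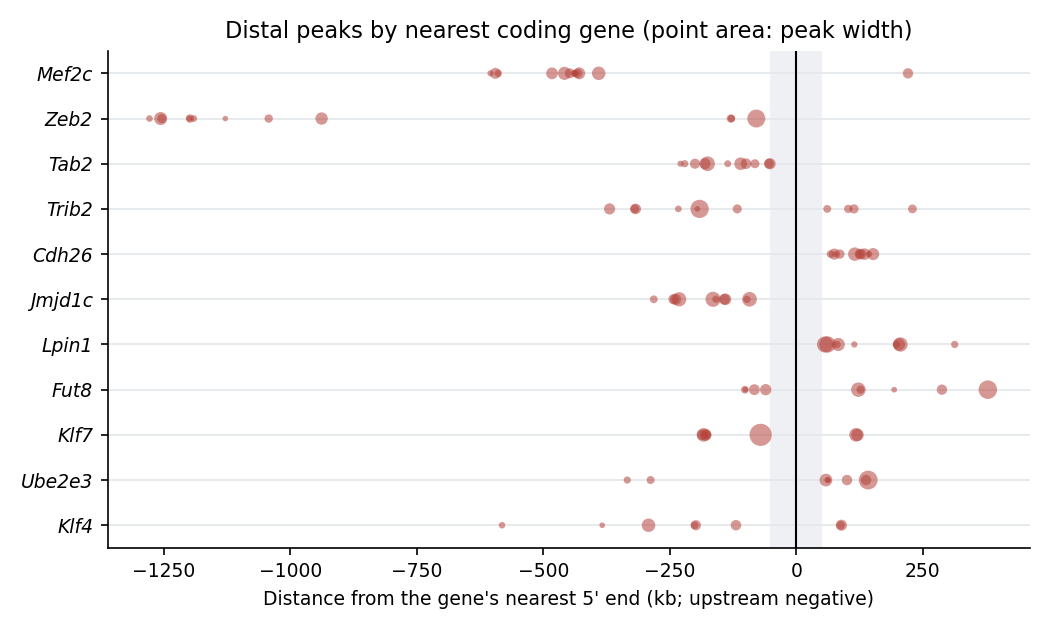
Distal peaks around 11 of the 12 coding genes nearest to most of them, by distance from the gene's nearest 5′ end (x axis, kb, upstream negative). Each point is a peak and its area is proportional to peak width. The shaded band is the excluded 50 kb on each side. The Cdh26 and Lpin1 peaks are all downstream, the Zeb2, Tab2 and Jmjd1c peaks all upstream, and the Zeb2 peaks reach 1278.3 kb.

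Gene lists for B cells and other lineages were counted in the same way. Of 25 B cell transcription factors, 6 were the nearest coding gene of a distal peak (24.0%, against 3.99% of all coding genes). They took 36 peaks, with Mef2c and Zeb2 holding 25 of these and Runx1, a RUNX factor, holding 7 at 57.9 to 366.7 kb upstream. The list had 8.25 peaks per Mb of its peak-free distal sequence, and 6.39 without Mef2c and Zeb2. Tcf4, the E2-2 E protein gene, had 2, and Ets1 and Myb had 1 each. Ets1 had no TSS peak and overlapped a wide interval. Of the 25 genes, 15 overlapped one of the 289 intervals of 50 kb or more, in which narrow peaks are not listed, compared with 23.6% of all coding genes. In the lists below, 11 of 25 activation and plasma cell genes, 11 of 20 T cell genes and 6 of 19 myeloid genes did so. Of 19 neural development regulators, 1 did.

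Of 25 activation and plasma cell genes, 3 were nearest to a distal peak, with 13 peaks and 9.0 per Mb. Myc, the growth regulator induced on activation, had 7 at 214.5 to 837.3 kb, 3 upstream and 4 downstream. Prdm1, which encodes the plasma cell regulator BLIMP1, had 5 at 71.0 to 180.3 kb upstream. S1pr1, a sphingosine phosphate receptor, had 1. Without Myc and Prdm1 the list came to 2.44 per Mb.

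By share of genes and by peaks per Mb, the myeloid list stood above both B cell lists. Of 19 myeloid genes found, 5 were nearest to distal peaks (26.3%), with 15 peaks and 10.3 per Mb. Klf4 had 8 of them, Ly96, which encodes the LPS co-receptor MD-2 and is also used by B cells, had 3, Maf had 2, and Csf3r had 1. Without Klf4 and Ly96 the list came to 4.88 per Mb. All 5 myeloid genes with eligible distal sequence had a distal peak. This held for 6 of 10 such B cell transcription factors and 19.1% of all such coding genes. Of 20 T cell genes, Tox (4) and Satb1 (1), 10.0% of the list, gave 1.84 per Mb, against 1.93 over all genes. They were 25.0% of the 8 T cell genes with eligible distal sequence. Of 19 neural development regulators found, 14 had eligible distal sequence, 4.12 Mb in all. Only Eomes (5.26% of those found and 7.14% of those with eligible sequence) was nearest to distal peaks, with 2, or 0.485 per Mb. These lists hold few genes and no test was made of them.

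A 5′ end of a noncoding gene or pseudogene lay within 10 kb of 100 distal peaks (6.20%, interval 5.12 to 7.48%), and the median distance was 101.5 kb. The rule left out peaks that touched a gene body or a 1 kb TSS window of any gene type, so that the closest positions could not occur. A wide interval lay within 500 kb of 209 distal peaks (12.9%). Neither share was counted in peak-free distal sequence, so that neither is shown to be high or low.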

How the data were processed

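The deposited list gives positions only (0-based start and end, other units absent). Per the labels and the study's methods, the authors trimmed reads with Trim Galore 0.6.4, aligned them to mm9 with Bowtie 1.0.0 keeping unique matches, called narrow and broad peaks with MACS2 2.2.6 and wide domains with EDD for each replicate, merged them with bedtools 2.27.1 and kept those found in both replicates. Sequence without a unique match could hold no peak.

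Genes were taken from GENCODE M1 on the NCBIM37 (mm9) reference. Of the 16332 intervals, 289 of 50 kb or more were treated as wide intervals. Of them 1 ran past its chromosome end. Sequence that could hold a peak was intergenic, without N and outside wide intervals, and its peak-free part was cut into 300 bp tiles. The nearest gene was that with the nearest TSS of any transcript. Distal peaks were compared with near intergenic peaks, distant gene body peaks and tiles by exact two-sided Wilcoxon signed-rank tests over 19 autosomes, adjusted by Benjamini-Hochberg over 8 tests, and over 14 motifs for each comparison. A lower motif share was read as a call only if at least 1 peak per autosome was expected, a rule added after simulated data showed the test to be skewed below that. Intervals of shares are Wilson intervals and cover counting error only. Intervals of differences come from the signed-rank test.

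Regions were named by rule: the 5 widest, the 5 farthest, the 5 largest runs (a sixth, tied in size, was added), the 3 on each side of the 50 kb limit, the 12 genes nearest to most peaks (ties by position) and up to 6 genes of each list. The members and lists were chosen with earlier results of these data known. Of 110 list genes 108 were found, Spi1 under its older symbol Sfpi1. A gene of each of 2 of these sets and 1 sequence are not reported here. A comparison of repeat-masked bases was planned but not made, as the reference had 0 masked bases. Scripts used Python 3.11.15, numpy 2.4.6 and scipy 1.17.1 and were tested on simulated data.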

Additional observations from a re-analysis of the deposited data

Results flagged for a closer look

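The X chromosome entered no comparison. By the same rule it held 39 intergenic peaks more than 50 kb from a coding TSS, out of 408 X peaks (9.56%), or 0.533 per Mb of the sequence that could hold them, with a median width of 1374 bp. Intergenic peaks within 50 kb came to 1.33 per Mb on the X chromosome. It was listed here because it lies outside the autosomal comparisons, and no difference from the autosomes was tested.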

How the results depend on the processing

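No paired analysis was possible because only joint positions of both replicates are listed, and for the same reason no replicate could be left out. The comparison of repeat-masked bases was not run. Of 54 values under an alternative, 44 counted as unchanged. For differences, unchanged meant the same direction and the same side of the threshold. For counts of peaks or motifs it meant only staying within a set factor, as from 10 to 7 motifs higher than in tiles. The number of distal peaks was 828 with a limit of 100 kb and 659 among peaks at or above the median width. The width difference changed sign against near intergenic peaks with the limit of 100 kb (-33.5 bp) and with assignment by midpoint (-33.0 bp), and against distant gene body peaks with the limit of 100 kb (-28.5 bp), and was past the threshold in none of these. The GC difference from distant gene body peaks was -0.966 percentage points among wider peaks and not past the threshold. Motifs higher than in tiles fell to 4 among wider peaks (PU.1, ETS, kappaB and the GC box). Motifs lower than in tiles came to 2 within the GC range of the peaks and 0 with the limit of 100 kb, where 0 motifs were read as lower than in near intergenic peaks, although CTCF (1.09 against 1.83%, adjusted p = 0.0198, exact signed-rank test) was past the threshold with too few expected peaks to be read. For single motifs, the G-quadruplex difference from tiles reversed to -4.18 percentage points within the GC range. Signs of differences that were past the threshold in no setting changed against near intergenic peaks for AP-1 (-0.739) and YY1 (0.574) with the limit of 100 kb, for the G-quadruplex (0.394) with central 900 bp windows, and for kappaB in 3 settings (1.16 with 900 bp windows, 0.751 with the limit of 100 kb and 0.0358 among wider peaks). The cause of these changes was not tested.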

Other observations

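Within 100 kb of an annotated immunoglobulin or T cell receptor gene segment there were 9 distal peaks (0.558%), a set looked up after the data were seen. Among them, 5 lay by the Igk light chain locus on chromosome 6, and the one nearest to the joining segments was 593 bp wide, 8.06 kb from the 5′ end of Igkj1, with an E2A E-box match at its centre. A pair lay between heavy chain variable segments on chromosome 12, 1.65 kb from Ighv15-2 (1051 bp wide) and 12.2 kb from Ighv12-3 (999 bp wide). The remaining ones lay 72.7 kb from Trbv1 and 4.65 kb from Trav6d-3. Segments are repeated families and reads without a unique match were dropped, so that the number of peaks there cannot be told apart from the share of sequence that could be read. The amount of sequence there that met the distal rule was not counted, so that the number is not shown to be low or high.

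Among distal peaks with a GC content of 50% or more, the highest CpG ratio, 1.08, belonged to a 300 bp peak 86.1 kb upstream of Ezh2, the H3K27 methyltransferase gene. The second, 0.871, belonged to a 2440 bp peak 2.96 kb from the annotated 5′ end of Mir17hg, the host gene of the miR-17-92 cluster, which counted as distal because the nearest coding TSS, that of Gpc5, was 52.3 kb away. The third, 0.855, was a 362 bp peak on chromosome 17 with no other peak within 1035.8 kb, 5.76 kb from the pseudogene AY036118. These peaks were named after their values were seen.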
